A study of Mus musculus with 6 samples.

Results

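The 50 genes described here act in mitosis, from the commitment to enter it to the final cut between daughter cells. They were taken as a named list of mouse cell cycle genes, and a probe was assigned to a gene where the RefSeq accession on the array matched that gene's symbol. All 50 were found, with 69 probes between them, among 37153 genes and unnamed features on the array, and all 50 passed the filter on dim probes, as did 25055 features in all; Cenpf and Ncapg passed only through the ESC arrays, where they were high. The study compared muscle-derived stem cells (MDSC) with embryonic stem cells (ESC) by hybridising each RNA to its own 1-colour array, to describe the potency of the muscle cells by their expression. The 6 arrays held 2 isolations of MDSC from wild-type (WT) mice, 2 isolations of MDSC from myostatin-null (Mstn-null) mice, and 2 passages of the mouse ESC line W4.

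The MDSC were the cells of whole hindlimb muscle that adhered last in a series of 6 platings; they came from male mice aged 5 weeks, were grown in medium with fetal bovine serum, horse serum and chick embryo extract, and were collected at passage 1 and 70% confluence. The labels give neither the Mstn allele nor the strain, and do not say whether an isolation was of 1 mouse or pooled. They name isolations 1 and 2 in each genotype. The W4 cells, a male line, were collected at passages 12 and 15, called ESC 1 and ESC 2 here. They had been grown on mitotically inactivated embryonic fibroblasts, which were removed by a 20-minute plating before RNA extraction, although the sample label calls the colonies feeder-free. No sample was treated. The ESC arrays are passages of 1 line, so their spread is that between passages and not between lines.

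A cell enters mitosis when cyclin-dependent kinase 1, bound to cyclin A or B, is switched on by the Cdc25 phosphatases, and it leaves mitosis when the anaphase-promoting complex marks those cyclins and securin for destruction. In between, chromosomes condense, kinetochores attach them to the spindle, the spindle checkpoint holds back the anaphase-promoting complex until every chromosome is attached, and the central spindle directs cytokinesis. Most of these genes are transcribed late in the cell cycle, under the DREAM and B-Myb-MuvB complexes and FoxM1, so that their mRNA in a culture depends on how many cells are cycling as well as on the level in each cell. Embryonic stem cells cycle fast with short gap phases, whereas cultures from adult muscle mix cycling cells with cells that have left the cycle. In RNA from a whole culture, fewer dividing cells and less of an mRNA per cell cannot be told apart.

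On the arrays, 53.3% to 64.6% of the spots were well above background, and the 75th percentile of signal lay between 550.02 and 646.7 intensity units. Values below are log2 signals relative to that percentile of the same array, so that 0 is the percentile itself. The 8 pluripotency markers checked were all well above background on both ESC arrays. In MDSC, 5 of them were so in WT isolation 1 and 4 in each other isolation. Their mean was 5.96 and 6.14 in ESC and between -4.66 and -4.22 in MDSC. Of 8 muscle progenitor markers, 7 were well above background in WT isolation 1 and 5 in each other MDSC isolation, against 5 in ESC 1 and 4 in ESC 2. Myf5 was well above background on no array, and Pax7 was so only in WT isolation 1 and ESC 1. Myod1 was so on all 4 MDSC arrays and on neither ESC array. The Mstn probe read -4.90 and -6.71 in WT MDSC, where it was not well above background, and -3.06 and -2.47 in the arrays labelled Mstn-null, where it was. With the allele not given, whether that probe lies in the deleted part is unknown, so it does not check the labels, and genotypes are named here as labelled. The WT arrays shared slide 1 and all others slide 2, and for WT MDSC the slide and the group cannot be told apart.

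Nearly the whole set was lower in MDSC than in ESC. Taking the mean of both MDSC genotypes against ESC, 46 of the 50 genes were lower and 0 higher in the limma fit over all features at an adjusted p under 0.05, and the 4 that missed it, Nuf2, Spc25, Mki67 and Prc1, also had negative differences. Over all features tested the same rule called 31.4% lower and 28.3% higher, and the median difference was -0.03 on the log2 scale, against -2.16 (a 4.46-fold difference) for these genes. The called differences ran from 2.20-fold for Foxm1 to 10.2-fold for Bub1b. The 4 MDSC values did not overlap the ESC values in 48 of the 50 genes, as they did not, with MDSC below, in 36.1% of all features. Of the 48 genes that passed the filter through an MDSC group, 44 were among those called lower. With ESC 1 left out the count of lower genes was 24 of 50 (48%, against 25.6% of all features in that fit), and with ESC 2 left out it was 20 (40%, against 24.8%).

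**Figure D1:**
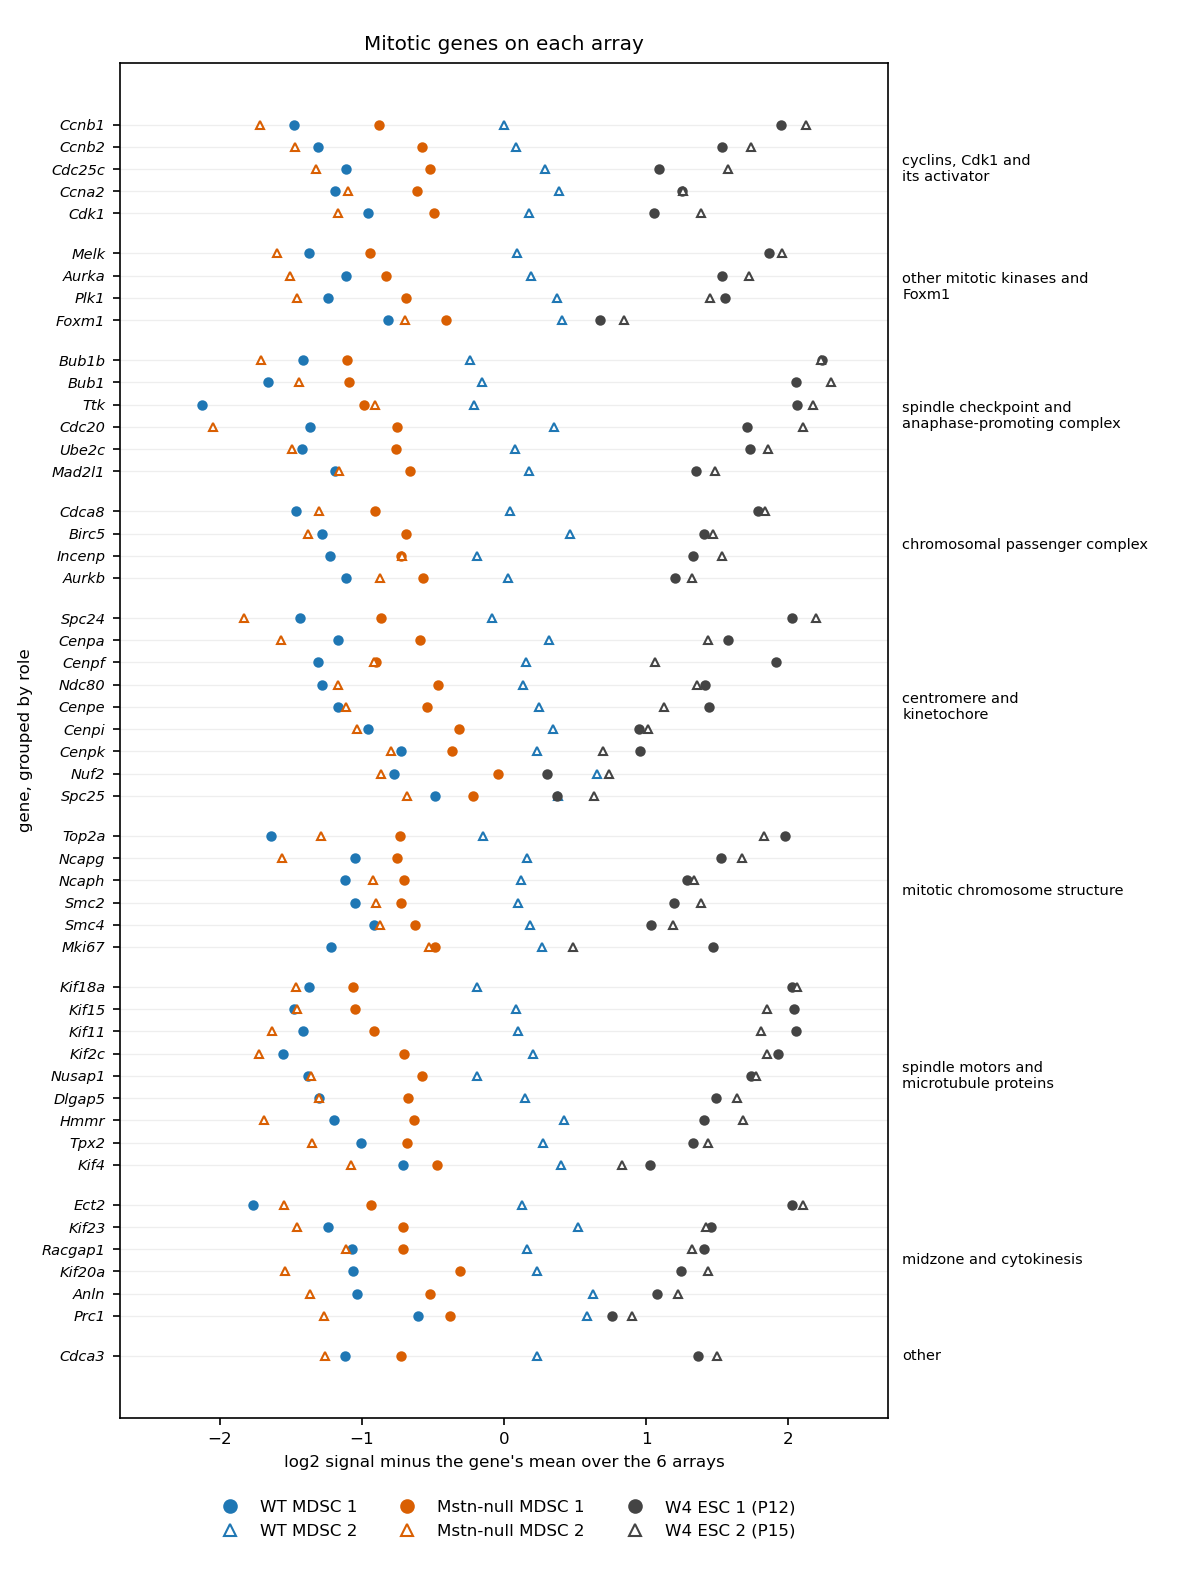
Each row is 1 gene and each symbol 1 array; the horizontal axis is the log2 signal minus that gene's mean over the 6 arrays, and genes are grouped by role. Both ESC arrays lie to the right of the MDSC arrays in 48 of 50 rows, WT isolation 2 (open blue triangle) is the MDSC array farthest to the right in all 50, and WT isolation 1 and Mstn-null isolation 2 are farthest to the left.

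Among the genes of mitotic entry, all 5 of Cdk1, its cyclins and its activator were lower in MDSC, with a median difference of -2.00. Cdk1, the kinase itself, read 1.09 and 2.22 in WT MDSC, 1.55 and 0.87 in Mstn-null MDSC, and 3.09 and 3.42 in ESC. Both ESC values were above all 4 MDSC values, and the MDSC values themselves spread over 1.34. The difference was -1.83 ± 0.39 (SE; adjusted p = 0.0133, limma, n = 2 isolations per genotype and 2 passages), a 3.55-fold lower signal in MDSC. The Cdk1 probes did not give 1 answer: another probe gave -1.84, while the dimmest differed by only -0.25 (adjusted p = 0.252 in the limma fit over probes).

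Ccnb1, which encodes cyclin B1, had the widest gap of this group. It read 1.72 and 3.20 in WT MDSC, 2.32 and 1.48 in Mstn-null MDSC, and 5.14 and 5.32 in ESC. The ESC arrays were close together, and the lower of them was 1.94 above the highest MDSC array. The difference was -3.05 ± 0.48 (adjusted p = 0.00523, limma), or 8.29-fold, and its other probes gave -3.55 and -3.62. Ccnb2 (cyclin B2), Ccna2 (cyclin A2) and Cdc25c, a phosphatase that activates Cdk1, were lower by 5.47-fold, 3.68-fold and 3.99-fold.

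The other mitotic kinases and the transcription factor Foxm1 were lower in 4 of 4 cases, with a median of -2.35. Plk1, the polo-like kinase that promotes entry and spindle assembly, read 2.45 and 4.06 in WT MDSC, 3.01 and 2.24 in Mstn-null MDSC, and 5.24 and 5.14 in ESC. Its difference was -2.25 ± 0.50 (adjusted p = 0.0151, limma). Aurka, the kinase of the spindle poles, was lower by 2.44 ± 0.42. Melk, a kinase of the AMPK family whose mRNA peaks in mitosis, read -0.30 and 1.16 in WT MDSC, 0.13 and -0.53 in Mstn-null MDSC, and 2.94 and 3.03 in ESC. It had the largest difference of the group at -2.87 ± 0.46 (adjusted p = 0.00524, limma).

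Foxm1 had the smallest. The gene, which encodes an activator of late cell cycle genes, read -0.31 and 0.92 in WT MDSC, 0.10 and -0.19 in Mstn-null MDSC, and 1.19 and 1.35 in ESC. WT isolation 2 came within 0.27 of ESC 1, while the other isolations stayed lower. The difference of -1.14 ± 0.37 was just past the threshold (adjusted p = 0.0468, limma) and was not past it with median centring of the arrays or without the filter on dim probes. The other, dimmer Foxm1 probe gave -1.35 (adjusted p = 0.0318 in the limma fit over probes).

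The spindle checkpoint and anaphase-promoting complex genes had the largest median difference of the roles, -3.02, and 6 of 6 were lower. Bub1b, which encodes the checkpoint protein BubR1, read -0.48 and 0.69 in WT MDSC, -0.17 and -0.77 in Mstn-null MDSC, and 3.17 and 3.16 in ESC. The ESC arrays were nearly equal, and the highest MDSC array lay 2.47 below them. The difference was -3.35 ± 0.38 (adjusted p = 0.00202, limma), the largest of the 50. Bub1, the checkpoint kinase of the kinetochore, read -0.81 and 0.69 in WT MDSC, -0.24 and -0.59 in Mstn-null MDSC, and 2.91 and 3.15 in ESC, a difference of -3.26 ± 0.45 (adjusted p = 0.00333, limma).

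Cdc20, the activator of the anaphase-promoting complex that the checkpoint restrains, read 3.12 and 4.83 in WT MDSC, 3.73 and 2.44 in Mstn-null MDSC, and 6.19 and 6.59 in ESC. Every MDSC value was below both ESC values, and the MDSC arrays spanned 2.39, the widest range of the 50 genes. Its difference was -2.86 ± 0.61 (adjusted p = 0.013, limma), with the largest SE of the 50 genes. Ttk, the checkpoint kinase Mps1, was lower by 9.02-fold, Ube2c, an E2 enzyme of the complex, by 6.47-fold, and Mad2l1, which encodes Mad2, had the smallest difference of the role at 4.36-fold. Mad2l1 read 1.43 and 2.79 in WT MDSC, 1.96 and 1.46 in Mstn-null MDSC, and 3.97 and 4.10 in ESC. The other Mad2l1 probes gave -1.62 and -1.07, of which the latter was not past the threshold (adjusted p = 0.0559 in the limma fit over probes).

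All 4 genes of the chromosomal passenger complex, which corrects wrong attachments and then moves to the central spindle, were lower, with a median of -2.15. Aurkb, its kinase, read -3.64 and -2.50 in WT MDSC, -3.10 and -3.40 in Mstn-null MDSC, and -1.33 and -1.21 in ESC. The difference was -1.89 ± 0.35 (adjusted p = 0.00817, limma), the smallest of the complex. Birc5, which encodes survivin, read 3.59 and 5.33 in WT MDSC, 4.18 and 3.49 in Mstn-null MDSC, and 6.27 and 6.34 in ESC. WT isolation 2 was nearer to ESC than to WT isolation 1, and the pooled difference was -2.16 ± 0.53 (adjusted p = 0.02, limma). Cdca8, which encodes borealin, read 2.03 and 3.53 in WT MDSC, 2.59 and 2.19 in Mstn-null MDSC, and 5.28 and 5.33 in ESC. It differed by -2.72 ± 0.44, the most of the complex, and the scaffold Incenp by -2.14 ± 0.32.

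Among centromere and kinetochore genes 7 of 9 were lower and the median was -1.93. Cenpa, the histone H3 variant of centromeres, read 1.33 and 2.81 in WT MDSC, 1.91 and 0.93 in Mstn-null MDSC, and 4.07 and 3.93 in ESC. It was lower in every MDSC isolation, by -2.25 ± 0.50 on average (adjusted p = 0.0149, limma). Cenpf, a kinetochore and nuclear matrix protein, rose well above background in ESC alone, on both arrays, and was at least 2.88-fold lower in MDSC, a bound taken against the dimmest signal still well above background. Its adjusted p of 0.0134 (limma) rests on MDSC values at background. Cenpf passed the filter only through ESC, and the 7 lower genes of this role include it.

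The 4 genes of the Ndc80 complex, the kinetochore's grip on microtubules, did not give 1 picture. Ndc80 read -1.30 and 0.12 in WT MDSC, -0.48 and -1.19 in Mstn-null MDSC, and 1.40 and 1.34 in ESC, a difference of -2.08 ± 0.45 (adjusted p = 0.0136, limma). Spc24 read -0.38 and 0.97 in WT MDSC, 0.19 and -0.77 in Mstn-null MDSC, and 3.08 and 3.25 in ESC, a difference of -3.16 ± 0.47 (adjusted p = 0.0044, limma) and the largest of this role. In both genes every MDSC isolation lay below both ESC passages.

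Spc25 read 3.35 and 4.22 in WT MDSC, 3.62 and 3.16 in Mstn-null MDSC, and 4.21 and 4.47 in ESC. WT isolation 2 was at the level of ESC 1, and the difference of -0.76 ± 0.31 did not pass the threshold (adjusted p = 0.0843, limma) and was the smallest of the 50. The brightest Nuf2 probe read -0.29 and 1.14 in WT MDSC, 0.44 and -0.39 in Mstn-null MDSC, and 0.78 and 1.22 in ESC, with WT isolation 2 again inside the ESC range and a difference of -0.78 ± 0.48 (adjusted p = 0.217, limma). The other Nuf2 probe was not well above background in any MDSC isolation but was so in both ESC passages, so the probes of Nuf2 do not give the same answer.

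Genes of mitotic chromosome structure were lower in 5 of 6 cases, with a median of -1.95. Top2a, the topoisomerase that untangles sister chromatids, read 0.35 and 1.83 in WT MDSC, 1.25 and 0.70 in Mstn-null MDSC, and 3.96 and 3.82 in ESC. Its difference was -2.85 ± 0.45 (adjusted p = 0.00525, limma), the largest of this role. Of the condensin genes, Smc2, Smc4 and Ncaph were lower by 3.18-fold to 3.90-fold. Ncapg, the fourth, read -4.47 and -3.26 in WT MDSC, -4.18 and -4.98 in Mstn-null MDSC, and -1.89 and -1.75 in ESC. It was well above background in both ESC passages and, among MDSC, in WT isolation 2 only. Its level in the other isolations is therefore bounded rather than measured. Against Mstn-null MDSC, where neither array measured it, the bound was at least 5.86-fold (adjusted p = 0.00819, limma). That p rests on Mstn-null values at background. Ncapg passed the filter only through ESC, and the 5 lower genes of this role include it.

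Mki67, which encodes the proliferation antigen Ki-67, was not among the called genes. It read 2.13 and 3.61 in WT MDSC, 2.86 and 2.81 in Mstn-null MDSC, and 4.81 and 3.83 in ESC. The groups did not overlap, but ESC 1 exceeded ESC 2 by 0.99, the widest gap between the ESC arrays among the 50 genes, and the difference of -1.47 ± 0.50 missed the threshold (adjusted p = 0.0542, limma). Its second probe showed the same drop from ESC 1 to ESC 2 and a difference of -1.50 (adjusted p = 0.0496 in the limma fit over probes).

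All 9 spindle motor and microtubule genes were lower, with a median of -2.63. Kif18a, the motor that damps chromosome movement at the metaphase plate, read -2.30 and -1.12 in WT MDSC, -1.99 and -2.39 in Mstn-null MDSC, and 1.09 and 1.13 in ESC. Its difference, -3.06 ± 0.36 (adjusted p = 0.00224, limma), was the largest of the role. Kif11, the motor Eg5 that pushes spindle poles apart, read -1.99 and -0.48 in WT MDSC, -1.49 and -2.21 in Mstn-null MDSC, and 1.47 and 1.23 in ESC, a difference of -2.89 ± 0.48 (adjusted p = 0.0059, limma).

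The lower ESC array exceeded the highest MDSC array by 2.22 in Kif18a and by 1.71 in Kif11. Tpx2, which activates Aurora A on the spindle, read 1.32 and 2.60 in WT MDSC, 1.64 and 0.98 in Mstn-null MDSC, and 3.65 and 3.76 in ESC, a difference of -2.07 ± 0.42 (adjusted p = 0.0108, limma). The other Tpx2 probe gave a smaller difference of -1.03 (adjusted p = 0.0342 in the limma fit over probes). For WT MDSC against ESC that probe gave -0.63 and was not past the threshold (adjusted p = 0.178 in the same fit). Kif4, the chromosome-bound motor of the central spindle, read -0.99 and 0.12 in WT MDSC, -0.75 and -1.36 in Mstn-null MDSC, and 0.74 and 0.55 in ESC. It had the smallest difference of the role, -1.39 ± 0.37 (adjusted p = 0.0265, limma). Kif15, Kif2c, Nusap1, Hmmr and Dlgap5 were lower by 4.98-fold to 7.56-fold.

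Of the genes of the spindle midzone and cytokinesis 5 of 6 were lower, with a median of -2.03. Ect2, the exchange factor that activates RhoA at the cleavage furrow, read -0.15 and 1.73 in WT MDSC, 0.67 and 0.06 in Mstn-null MDSC, and 3.63 and 3.71 in ESC, and had the largest difference of the role at -3.10 ± 0.56 (adjusted p = 0.00769, limma). Kif23, the motor of the centralspindlin complex, read -0.76 and 1.00 in WT MDSC, -0.23 and -0.98 in Mstn-null MDSC, and 1.93 and 1.90 in ESC, a difference of -2.16 ± 0.54 (adjusted p = 0.0211, limma). Both genes read highest among MDSC in WT isolation 2.

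Anln, which encodes the furrow scaffold anillin, read 2.24 and 3.90 in WT MDSC, 2.75 and 1.91 in Mstn-null MDSC, and 4.35 and 4.50 in ESC. WT isolation 2 lay close under ESC, and the difference was -1.72 ± 0.53 (adjusted p = 0.039, limma), which was not past the threshold without the filter on dim probes. Prc1, which bundles the midzone microtubules, had the smallest difference of the role, -1.25 ± 0.43, and missed the threshold (adjusted p = 0.054, limma); it read 2.55 and 3.73 in WT MDSC, 2.78 and 1.89 in Mstn-null MDSC, and 3.91 and 4.05 in ESC. Racgap1, the partner of Kif23, and the motor Kif20a were lower by 4.13-fold and 4.04-fold. Cdca3, a factor for the destruction of the mitotic brake Wee1, read 1.74 and 3.08 in WT MDSC, 2.13 and 1.60 in Mstn-null MDSC, and 4.22 and 4.35 in ESC, and was lower by 4.43-fold.

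Each genotype was also set against the same ESC arrays, which both comparisons therefore share. In WT MDSC 36 of 50 genes were lower and 0 higher, with a median of -1.93 (3.81-fold), against 25.9% lower and 27.1% higher over all features. In Mstn-null MDSC 46 were lower and 0 higher, with a median of -2.45 (5.45-fold), against 30.8% lower and 23.3% higher over all features. Both counts of lower genes include Cenpf and Ncapg, which passed the filter only through ESC. By their brightest probes, Foxm1, Nuf2, Spc25 and Mki67 passed in neither comparison. A further 10 genes passed in Mstn-null MDSC and not in WT MDSC, namely Ccna2, Birc5, Cenpi, Cenpk, Kif4, Hmmr, Kif20a, Kif23, Prc1 and Anln, which does not show that the genotypes differ in them. The WT count rested on both ESC arrays: without ESC 1 it was 7 of 50 (14%, against 20.9% of all features in that fit) and without ESC 2 it was 6 (12%, against 20.8%), shares below those of the whole array. For Mstn-null MDSC the counts were 20 (40%, against 25.8%) and 17 (34%, against 24.8%), and without Mstn-null isolation 2 the count was 13 (26%, against 17.3%). Without WT isolation 1 the median of WT MDSC against ESC was -1.22, and without WT isolation 2 it was -2.67.

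**Figure D2:**
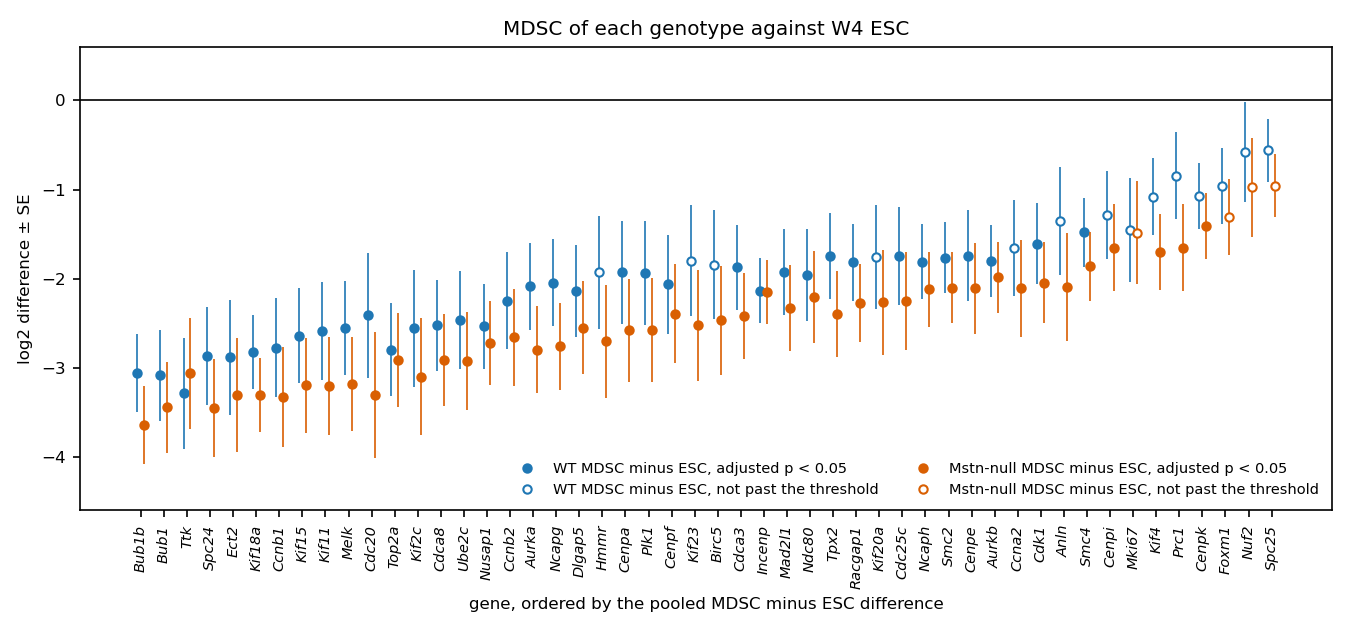
The vertical axis is the log2 difference from W4 ESC with its SE, for WT MDSC (blue) and Mstn-null MDSC (orange), with genes ordered by the mean of both; filled points passed the threshold and open points did not. All 100 differences are below 0, with 36 filled points for WT MDSC and 46 for Mstn-null MDSC, and the open points lie mostly at the right, where differences are smallest.

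The direct comparison of Mstn-null with WT MDSC called 0 of the 50 genes in limma, lower or higher, as it called 0% of all features lower and 0% higher. At an unadjusted p under 0.05 it still called 0 of the 50, against 3671 features, or 14.7%, over the whole array. The differences were negative for 49 genes and positive for Ttk, with a median of -0.45 (1.37-fold), against -0.12 for all features. In none of the 50 genes did the values of the genotypes separate: WT isolation 2 was above both Mstn-null arrays and WT isolation 1 below Mstn-null isolation 1 in every one; over all features Mstn-null lay wholly below WT in 34.8% and wholly above in 16.6%. The data did not bound the difference closely: the 95% interval reached a 2-fold lower signal in Mstn-null MDSC for 49 genes and a 2-fold higher one for 9.

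The 5 smallest p-values in that comparison belonged to Prc1, Ncapg, Aurka, Kif4 and Tpx2. Prc1, whose array values are given above, differed by -0.81 (95% interval -2.07 to 0.46; adjusted p = 0.535, limma). Aurka read 2.08 and 3.38 in WT MDSC and 2.36 and 1.69 in Mstn-null MDSC, a difference of -0.71 (adjusted p = 0.581, limma). Kif4, whose array values are also given above, showed a difference of -0.62 (adjusted p = 0.584, limma). In each of these genes Mstn-null isolation 1 fell between the WT isolations. Ncapg, not well above background in Mstn-null MDSC, differed by -0.72 and Tpx2 by -0.65, with adjusted p-values of 0.576 and 0.608 (limma).

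The sign of the median depended on which WT isolation was used. Without WT isolation 1 it was -1.15, and without WT isolation 2 it was 0.20. WT isolation 1 was below WT isolation 2 in all 50 genes, by a median of 1.40 (2.65-fold) and by 0.87 to 1.91, whereas over all features tested it was below in 58.2% with a median difference of -0.07. The order WT isolation 2, then Mstn-null isolation 1, then the remaining isolations held in 48 of the 50 genes. Mstn-null isolation 2 was below Mstn-null isolation 1 in 48 genes, by a median of 0.64, and was the lowest MDSC array in 30 genes, with WT isolation 1 the lowest in the other 20.

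The gap between the WT isolations was wider than the gap from WT isolation 2 up to the ESC mean in 30 of the 50 genes. WT isolation 2 was below ESC 1 in 48 genes and below ESC 2 in all 50, by medians of 1.23 and 1.28. The ESC passages were closer to each other: ESC 1 was below ESC 2 in 35 genes, with a median difference of -0.11. The mitotic genes thus moved together from culture to culture, and the order of the cultures mixed the genotypes.

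**Figure D3:**
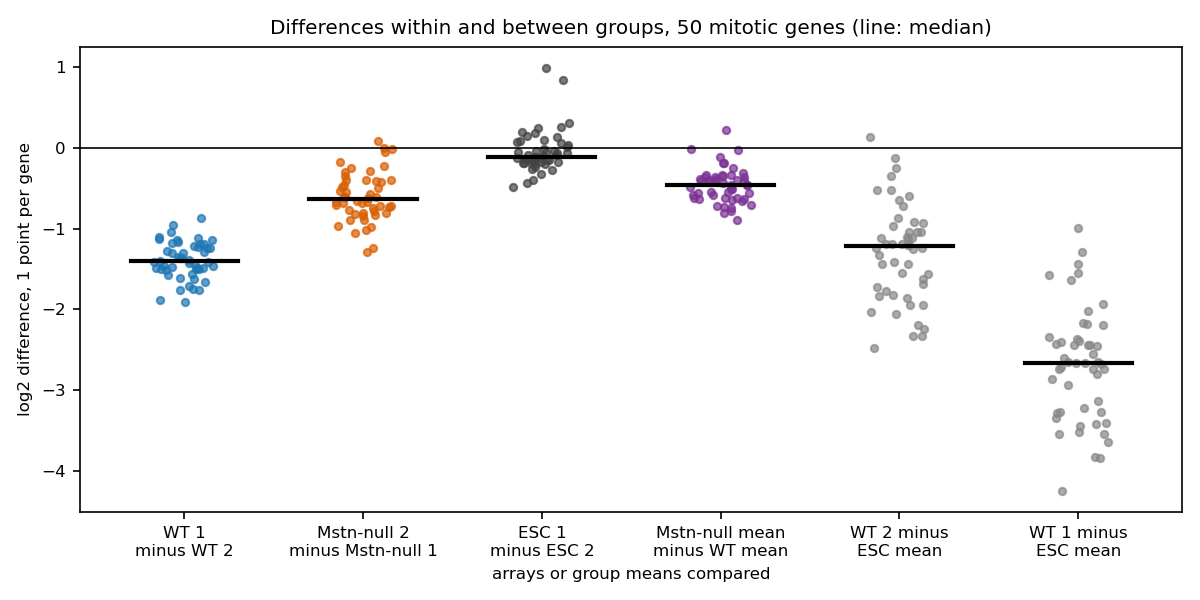
Each point is 1 of the 50 genes and each black line the median over them; the vertical axis is a log2 difference between the arrays or group means named below. The WT isolations differ by a median of -1.40 and in 1 direction throughout, the ESC passages by -0.11, the genotypes by -0.45, and WT isolation 2 differs from the ESC mean by -1.22.

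In each role WT isolation 2 had the highest median of the MDSC arrays and Mstn-null isolation 1 the next, while the lowest was WT isolation 1 in some roles and Mstn-null isolation 2 in others. Relative to each gene's mean over the arrays, the median over the 50 genes was -1.20 and 0.17 in WT MDSC, -0.69 and -1.31 in Mstn-null MDSC, and 1.45 and 1.48 in ESC. In the spindle checkpoint role it was -1.41 and -0.04 in WT MDSC, -0.87 and -1.47 in Mstn-null MDSC, and 1.89 and 2.14 in ESC. The spread was narrower for chromosome structure, at -1.08 and 0.14, -0.71 and -0.91, and 1.38 and 1.36.

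Markers of other cell types also differed between the MDSC cultures. The orders of the muscle and macrophage means neither matched nor reversed that of the mitotic genes, while the fibroblast means ran in its reverse. The mean log2 signal of 10 differentiated muscle markers, such as Myh3, Acta1 and Myog, was 3.39 and 0.46 in WT MDSC, 0.14 and -0.27 in Mstn-null MDSC, and -2.37 and -2.42 in ESC; it was highest in WT isolation 1. Between 9 and 10 of them were well above background in each MDSC isolation, and 8 on each ESC array. The mean of the 8 macrophage markers measured was 0.94 and -0.29 in WT MDSC, 2.64 and 4.36 in Mstn-null MDSC, and -3.13 and -2.48 in ESC; it was highest in Mstn-null isolation 2. All 8 were well above background in every MDSC isolation, and 4 and 7 on the ESC arrays. The isolation where the mitotic genes read highest, WT isolation 2, had the lowest macrophage mean of the MDSC arrays. Its muscle mean was above those of both Mstn-null isolations, but not every muscle marker shared that order. Acta1 and Ttn read lower in WT isolation 2 than in both Mstn-null isolations. The part of these cells in the differences was not tested.

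Fibroblast markers were present in both kinds of culture. The mean of 8 of them was 6.34 and 5.29 in WT MDSC, 6.33 and 6.68 in Mstn-null MDSC, and 2.56 and -0.17 in ESC. Among MDSC, this was the reverse of the order of the mitotic medians, with WT isolation 1 and Mstn-null isolation 1 nearly equal. Whether fibroblasts took part in that order was not tested. ESC 1 read 2.73 above ESC 2, a gap that the markers shared unequally: Lum was 2.14 and -5.96, and Col1a1 was 3.99 and 3.69. Among the 50 genes the widest gaps between the ESC passages were those of Mki67 (0.99) and Cenpf (0.85), both higher in ESC 1, while 35 of the 50 were lower in ESC 1. Whether feeder RNA took part in this was not tested.

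**Figure D4:**
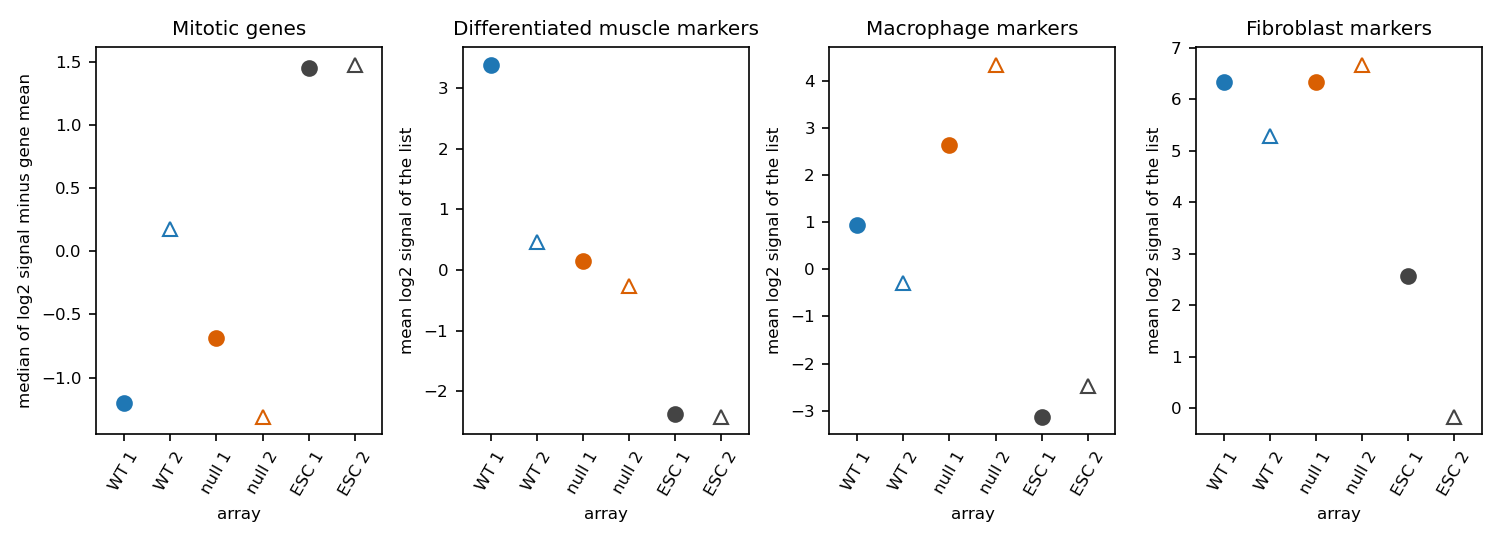
The left panel plots, for each array, the median over the 50 mitotic genes of the log2 signal minus the gene's mean; the other panels plot the mean log2 signal of the differentiated muscle, macrophage and fibroblast marker lists. Among MDSC, the arrays with the lowest mitotic medians (-1.20 and -1.31) are those with the highest muscle mean (3.39, WT isolation 1) and the highest macrophage mean (4.36, Mstn-null isolation 2). The macrophage order differs elsewhere: Mstn-null isolation 1 has a higher macrophage mean (2.64) than WT isolation 1 (0.94) and also a higher mitotic median (-0.69). Fibroblast means among MDSC run in the reverse of the mitotic order, from 6.68 in Mstn-null isolation 2 to 5.29 in WT isolation 2.

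Other cell cycle lists were measured beside these genes. Their counts stand beside 31.4% of all features called lower and 28.3% called higher in the same comparison. Of 32 further centromere, spindle and midzone genes tested, 26 were lower in MDSC than in ESC and 0 higher, with a median of -2.14; Cdca5, which encodes the cohesin protector sororin, had the largest difference at -3.49 ± 0.32 (adjusted p = 0.00112, limma). Of 29 genes of the G1/S transition and DNA replication, 21 were lower and 1 higher, with a median of -2.61. Ccnd2, the G1 cyclin D2, was the 1 that was higher, by 2.88 ± 0.18, and Orc1, a subunit of the origin recognition complex, was lower by 4.67 ± 0.52. The cohesin list had 11 lower and 0 higher of 15, with a median of -1.16, and Esco2, which acetylates cohesin, was lowest at -4.41 ± 0.33.

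The remaining lists had smaller median differences, and their counts too stand beside the 31.4% of all features called lower and the 28.3% called higher. Of 13 subunits and regulators of the anaphase-promoting complex, 5 were lower and 2 higher, with a median of -0.35; Fbxo5, its inhibitor Emi1, was lower by 3.84 ± 0.46, and the core subunit Cdc16 was higher by 0.64 ± 0.17. Of 22 MuvB, B-Myb and E2F regulators, 13 were lower and 1 higher, with a median of -1.07; Mybl2, which encodes B-Myb, was lower by 5.92 ± 0.40 and Rbl2, the DREAM pocket protein p130, was higher by 1.89 ± 0.26. Of 15 entry kinases, phosphatases and brakes, 7 were lower and 3 higher, with a median of -0.75; the cyclin-dependent kinase inhibitor Cdkn1a (p21) was higher by 1.96 ± 0.22, and Cdkn1c (p57) was lower by 3.30 ± 0.45. Adjusted p-values of the genes named in these lists lay between 0.000487 and 0.0242 (limma).

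The split between the WT isolations was seen in some of the other cell cycle lists too. WT isolation 1 was below WT isolation 2 in 32 of 32 further mitotic genes (median -1.16) and in 28 of 29 G1/S and replication genes (median -1.13), and in 14 of 15 cohesin genes by a smaller median of -0.41. It was below in 9 of 13 genes of the anaphase-promoting complex (median -0.10) and in 14 of 22 MuvB, B-Myb and E2F regulators (median -0.31). Among entry kinases, phosphatases and brakes it was below in 10 of 15 (median -0.40). Over all features tested it was below in 58.2%, with a median of -0.07.

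The promoter sequences of the 50 genes were also examined for the elements described for late cell cycle genes. These are the cell cycle genes homology region (TTTGAA), to which MuvB complexes bind, and the box bound by NF-Y (CCAAT). RefSeq windows of 300 bases (GRCm38.p6; 250 bases before the transcription start and 50 after) were matched for 40 of the 50 genes, in 44 windows. The windows below are shown because they are those of Bub1b, with the largest difference, of Spc25, with the smallest, and of 4 further genes whose values are given above; capitals mark every match to the motifs searched, on either strand.
Bub1b: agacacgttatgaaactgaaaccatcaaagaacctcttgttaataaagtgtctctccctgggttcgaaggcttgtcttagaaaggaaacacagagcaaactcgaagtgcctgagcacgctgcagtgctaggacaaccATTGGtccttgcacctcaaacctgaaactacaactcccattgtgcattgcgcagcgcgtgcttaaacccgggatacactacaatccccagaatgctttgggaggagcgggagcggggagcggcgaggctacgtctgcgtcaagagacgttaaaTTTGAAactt
Spc25: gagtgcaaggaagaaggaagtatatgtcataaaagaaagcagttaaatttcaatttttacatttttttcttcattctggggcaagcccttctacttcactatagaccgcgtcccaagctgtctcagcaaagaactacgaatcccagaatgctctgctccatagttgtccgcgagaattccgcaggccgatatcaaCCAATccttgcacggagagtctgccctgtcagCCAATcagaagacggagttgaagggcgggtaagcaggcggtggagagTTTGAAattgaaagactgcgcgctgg
Cdk1: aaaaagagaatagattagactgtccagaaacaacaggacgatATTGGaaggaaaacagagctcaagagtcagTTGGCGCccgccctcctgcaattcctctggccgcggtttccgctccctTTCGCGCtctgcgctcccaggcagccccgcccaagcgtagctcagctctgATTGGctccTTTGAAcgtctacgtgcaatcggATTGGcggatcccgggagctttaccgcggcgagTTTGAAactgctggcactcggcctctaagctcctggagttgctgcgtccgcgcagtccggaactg
Ccnb1: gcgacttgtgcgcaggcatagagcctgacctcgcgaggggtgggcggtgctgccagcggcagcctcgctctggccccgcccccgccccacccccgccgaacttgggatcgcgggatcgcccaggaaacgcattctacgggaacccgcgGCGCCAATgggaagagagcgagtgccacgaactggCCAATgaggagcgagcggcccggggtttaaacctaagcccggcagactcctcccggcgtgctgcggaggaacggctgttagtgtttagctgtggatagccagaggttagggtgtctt
Cdc20: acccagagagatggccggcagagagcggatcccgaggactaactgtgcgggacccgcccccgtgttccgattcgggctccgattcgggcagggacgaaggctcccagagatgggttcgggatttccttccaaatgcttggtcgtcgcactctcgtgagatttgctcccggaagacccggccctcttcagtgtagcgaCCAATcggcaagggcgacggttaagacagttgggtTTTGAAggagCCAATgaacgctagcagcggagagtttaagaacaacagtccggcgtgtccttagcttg
Plk1: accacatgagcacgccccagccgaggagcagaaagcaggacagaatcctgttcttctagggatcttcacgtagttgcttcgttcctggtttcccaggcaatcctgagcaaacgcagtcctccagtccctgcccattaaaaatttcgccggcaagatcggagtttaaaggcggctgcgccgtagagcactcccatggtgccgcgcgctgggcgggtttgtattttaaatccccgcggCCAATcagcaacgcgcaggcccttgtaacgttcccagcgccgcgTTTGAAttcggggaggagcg
The windows are chr2:118597961-118598260 (plus strand) for Bub1b, chr2:69206164-69206463 (minus strand) for Spc25, chr10:69352863-69353162 (minus strand) for Cdk1, chr13:100786437-100786736 (minus strand) for Ccnb1, chr4:118437294-118437593 (minus strand) for Cdc20 and chr7:122159185-122159484 (plus strand) for Plk1, each printed 5′ to 3′ along the gene. Bub1b and Spc25, at the ends of the range of differences, both hold TTTGAA shortly after the start and at least 1 CCAAT box before it. Ccnb1, among the larger differences, holds no TTTGAA in its window and has a pair of CCAAT boxes, the first of which overlaps a match to the E2F letters.

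Of the 44 windows, 30 (68.2%) held TTTGAA on either strand, against 12.6% of the 15470 windows of all genes tested and 17.9% of all 32851 windows. In the last 100 bases, from 50 before to 50 after the start, the shares were 63.6% against 3.30% and 4.94%, and the 29 matches there had a median position 9 bases after the start. CCAAT was found in 33 windows (75%, against 37.5% of the windows of genes tested), and 20 windows (45.5%, against 13.1%) held 2 or more. TTTGAA and CCAAT occurred together in 26 windows (59.1%, against 5.02%). The E2F letters searched, TTCCCGC or TTCGCGC or TTGCCGC or TTGGCGC, were in 11 windows (25%, against 14.8%). A match is a description of letters and not a bound site. The shares for the mitotic genes use no array value, so they describe the list and not these cultures.

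Within the 40 genes the difference between MDSC and ESC was similar in size with and without these letters. The 28 genes with TTTGAA in a window had a median difference of -2.28, from -3.35 to -0.76, and the 12 without it had a median of -2.14, from -3.26 to -0.78. Windows of Cenpk, Ect2 and Prc1 came more than once, from more than 1 start, and some overlap.

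**Figure D5:**
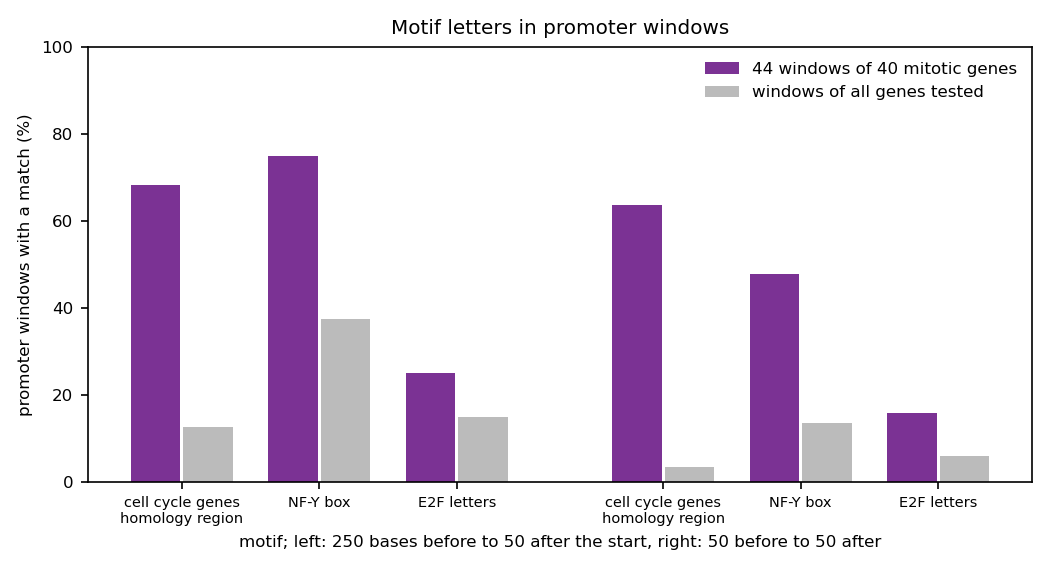
Bars give the percentage of promoter windows with at least 1 match on either strand, for the 44 windows of 40 mitotic genes (purple) and the windows of all genes tested (grey), in the whole window at the left and in its last 100 bases at the right. The cell cycle genes homology region is in 68.2% against 12.6% of whole windows, and in 63.6% against 3.30% of the last 100 bases.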

How the data were processed

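Cy3-labelled RNA of the 6 cultures was hybridised to 1-colour Agilent arrays, per the labels. The deposited files hold each array's spot intensity from Agilent Feature Extraction (10.7.1.1 per the file headers, 9.1 per the submitters' processing notes), which the authors had background corrected and not scaled between arrays; the design was made on mm9, per the file headers. Each value is log2 of the processed intensity, less the same array's 75th percentile (control spots aside). Spots flagged as outliers (100 to 122 per array) were removed before averaging the spots of each probe, and 23 probes left with a missing value were not used. Of 55681 probes, 26413 matched 1 RefSeq symbol and 29268 none. A gene was its brightest probe, and was tested where at least 1 group had it well above background in both of its arrays.

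Group means were fitted together with limma 3.58.1 in R 4.3.3 (two-sided; 3 residual and 2.02 prior degrees of freedom), adjusted by Benjamini-Hochberg over 25055 features with a threshold of 0.05. The number of arrays limits the precision. The isolations were named as separate in the labels; otherwise p-values measure only the spread between these samples.

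The genes, the role, pathway and marker lists, and the tests were chosen with earlier results of these data known. Array values are given for 16 genes named for their role, the largest and smallest differences of each role, the 5 smallest p-values between genotypes, and genes whose probes disagree in direction (of which there were 0); in each other list, the largest called rise and fall are named. The labels do not say that equal isolation numbers mark a shared day or litter, so no pairing was assumed.

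Alternatives were quantile normalization, median centring, normexp background correction (offset 50), no filter, well above background on all 6 arrays, flags kept, the mean over probes, only the groups compared, a robust variance trend, slide 2 alone, a replicate block, and each array left out. Promoter windows came from RefSeq (GRCm38.p6) and were searched on both strands.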

Additional observations from a re-analysis of the deposited data

How the results depend on the processing

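With only 2 arrays per group, the counts of called genes depended on single arrays, while the directions against ESC did not: the differences of all 50 genes stayed negative in each comparison with ESC under the alternatives run (48 genes where a signal well above background on all 6 arrays was required), except that Nuf2, WT MDSC minus ESC, which was not called, was 0.14 without WT isolation 1. With each array left out in turn, the count of lower genes ranged from 20 to 49 for MDSC against ESC, from 6 to 47 for WT MDSC and from 13 to 49 for Mstn-null MDSC; at the lowest counts the shares were 40%, 12% and 26% of the 50 genes, against 24.8%, 20.8% and 17.3% of all features in the same fits. The median difference ranged from -2.67 to -1.22 for WT MDSC against ESC and from -1.15 to 0.20 for Mstn-null against WT MDSC, where it changed sign. None of the 50 genes was called between the genotypes under any alternative. The replicate block called 0 genes with a median of -0.45, as did the fit without it; same-numbered MDSC arrays deviated in opposite directions (correlation -0.40 over all features), and a block with the numbers crossed, chosen after seeing the data, also called 0 of the 50. Quantile normalization called 12 features lower and 10 higher between genotypes over the whole array, against 0 and 0. Median centring moved the median of all features from -0.03 to 0.12 for MDSC against ESC and turned the split of calls for Mstn-null MDSC against ESC from 7723 lower and 5849 higher to 5471 and 6252; the medians of the 50 genes were then -2.01 and -2.22. Outside the arrays left out, Foxm1 and Anln were the genes called in MDSC against ESC that lost the call under an alternative, and Mki67, Prc1 and Nuf2 gained it under 1 or more; the cause was not tested.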
